A study of Mus musculus with 8 samples.

Results

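The genes described are 10 of the 49671 genes in the deposited table, chosen by symbol because they encode the fetal and adult isoforms of the cardiac sarcomere and their close partners. They are the myosin heavy chain genes Myh6, Myh7 and Myh7b, the actin genes Acta1 and Actc1, the troponin genes Tnni1, Tnni3, Tnnt2 and Tnnc1, and the tropomyosin gene Tpm1. All 10 were present and all 10 passed the filter on low values. Their polyadenylated RNA was measured in left ventricles of C57BL/6N mice, all male and 8 weeks of age when the study began. The groups were TAC SFA, TAC SFA-EAA, sham SFA and sham SFA-EAA, each with 2 libraries. TAC is transverse aortic constriction, in which the aortic arch is tied narrow so that the left ventricle must pump against high pressure, and tissue was taken 4 weeks after TAC or sham surgery. SFA is a low fat diet, and in SFA-EAA free essential amino acids took the place of 93.5% of its casein. The labels name no transgene or mutation in any group, and they do not tell whether both libraries of a group are from different mice. P-values therefore refer to the scatter of these libraries, which may be technical. The labels also give no check of how strongly the constriction loaded each heart.

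The contractile unit of heart muscle is built from thick filaments of myosin and thin filaments of actin, tropomyosin and the troponin complex. Several of its proteins exist as isoforms from separate genes. In the mouse, the fetal ventricle uses mainly the slow beta myosin heavy chain of Myh7, and after birth it changes to the fast alpha chain of Myh6, a change that thyroid hormone promotes. Acta1, the skeletal alpha-actin, and Tnni1, the slow skeletal troponin I, are likewise used in the developing heart, while Actc1 and Tnni3 encode the forms of the adult heart. Renewed use of Myh7 and Acta1 in rodents is a long known mark of an overloaded ventricle.

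The promoters of the myosin and actin pairs are shown because the results turn on these 4 genes. Each is the window that the RefSeq table on GRCm38.p6 gives around a gene's start, 250 bases before to 50 after, and is written 5′ to 3′ along the gene. That start is not always the outer limit of the gene given below. The windows of Myh6 and Actc1 lie wholly within those limits, as do those of Tnni1 and Tnni3, 4 of the 10 windows, so no base of these 4 is upstream of the annotated gene. All 4 genes shown lie on the minus strand. The RefSeq table gives 2 windows for each of Myh7, Tnni1 and Tnnt2, and the one nearest the start of the principal GENCODE transcript was used. Motifs in the other window were not counted for the gene. The windows are chr14:54994577-54994876 for Myh7, chr14:54966558-54966857 for Myh6, chr8:123894726-123895025 for Acta1 and chr2:114052826-114053125 for Actc1. Capitals mark the motifs that were searched on both strands, namely the M-CAT element, whose letters are CATTCC and which reads GGAATG when it lies on the opposite strand, the TATA element, whose letters are TATAAA, and the CArG box.
Myh7: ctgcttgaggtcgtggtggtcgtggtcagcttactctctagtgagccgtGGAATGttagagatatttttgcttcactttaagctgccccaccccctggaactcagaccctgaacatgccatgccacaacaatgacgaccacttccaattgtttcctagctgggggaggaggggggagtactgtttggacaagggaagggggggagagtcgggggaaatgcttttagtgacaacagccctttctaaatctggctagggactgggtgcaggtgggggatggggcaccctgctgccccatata
Myh6: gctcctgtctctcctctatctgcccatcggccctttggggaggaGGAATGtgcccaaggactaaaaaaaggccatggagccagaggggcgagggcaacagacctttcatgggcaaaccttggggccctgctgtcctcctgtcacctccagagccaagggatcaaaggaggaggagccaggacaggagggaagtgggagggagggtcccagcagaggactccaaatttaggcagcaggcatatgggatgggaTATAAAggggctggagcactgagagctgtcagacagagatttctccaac
Acta1: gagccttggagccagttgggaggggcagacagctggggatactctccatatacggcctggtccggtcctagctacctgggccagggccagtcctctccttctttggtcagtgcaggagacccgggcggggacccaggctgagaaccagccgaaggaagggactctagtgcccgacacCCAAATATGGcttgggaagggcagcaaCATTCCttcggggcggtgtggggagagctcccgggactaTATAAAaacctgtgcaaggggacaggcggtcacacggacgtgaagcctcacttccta
Actc1: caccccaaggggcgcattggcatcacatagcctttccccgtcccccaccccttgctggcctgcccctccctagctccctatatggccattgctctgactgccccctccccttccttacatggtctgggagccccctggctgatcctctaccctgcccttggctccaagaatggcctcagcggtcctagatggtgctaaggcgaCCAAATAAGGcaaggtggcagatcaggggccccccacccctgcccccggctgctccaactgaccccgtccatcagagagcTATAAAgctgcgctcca
M-CAT is the motif bound by TEAD factors and the CArG box the motif bound by serum response factor. M-CAT was found in the windows of Myh7, Myh6, Acta1, Tnnt2, Tnnc1 and Tpm1, which is 6 of the 10 genes, and in 14.66% of the 32851 promoter windows in the table. The CArG box was found in Acta1 and Actc1 and in 1.63% of all windows. TATAAA was found in Myh6, Acta1 and Actc1 and in 13.62% of all windows. In Myh6 and Actc1 it begins after the start used by the table, at base 2 and base 34 counted from 1 at that start. Both genes that rose after TAC, Myh7 and Acta1, carry M-CAT in this window, and so do 4 of the members that did not pass the test. These matches describe letters in a window and are not evidence of binding.

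The 3 myosin heavy chain genes each hold a microRNA in an intron, on the same strand as the host gene. These mature sequences are shown because they carry almost the same seed (bases 2 to 8, in capitals, from RefSeq on GRCm38.p6).
miR-208a-3p, in an intron of Myh6: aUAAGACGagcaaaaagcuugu
miR-208b-3p, in an intron of Myh7: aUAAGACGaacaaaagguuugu
miR-499-5p, in an intron of Myh7b: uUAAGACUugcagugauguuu
The seeds of miR-208a-3p and miR-208b-3p are identical, and miR-499-5p has the same bases 2 to 7. The library kit selects polyadenylated RNA, and the table lists Mir208b and Mir499 at 0 in all 8 libraries and Mir208a at no more than 1.22. Thus these microRNAs were not measured in a usable way here.

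Values below are the authors' normalized values, which are not whole reads and are not scaled to gene length. The test was limma on log2(value + 1) over the 16432 genes that reached 1 in 2 or more libraries, with a mean fitted for each group. P-values are two-sided and Benjamini-Hochberg adjusted over all 16432 genes, with a threshold of 0.05. The sum of a library's values lay between 5136441 and 6298743, with 22.1% to 39.5% of each sum in mitochondrial genes. Libraries stood apart in base composition. The deviation of a gene from its mean fell with GC content in TAC SFA-EAA replicate 2 and in both sham SFA-EAA libraries (Spearman rho -0.73, -0.62 and -0.43), and rose with it in the other 5 libraries (rho 0.34 to 0.52, across genes, which are not independent). Myl7, the atrial light chain, was listed at 321.9 in TAC SFA replicate 2 and at 621.3 in sham SFA replicate 1, while the other 6 libraries had 1.276 to 42.99. Calls of the 10 members that change after a correction for GC content are given with both values. Without those 2 libraries, limma called 0 genes of the whole table in each of the 7 comparisons, so every call made with all 8 libraries was lost.

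In every library Actc1, Myh6 and Tnni3 exceeded their fetal counterparts Acta1, Myh7 and Tnni1. On a per-kb scale (deposited value divided by the length of the principal GENCODE transcript), the mean over 8 libraries was 42399 for Actc1, 34091 for Tnnt2, 28607 for Tpm1, 23724 for Tnni3, 18724 for Tnnc1 and 14046 for Myh6. The order went on with Acta1 at 4405, Myh7 at 868.7, Myh7b at 24.11 and Tnni1 at 3.215. Neighbours in the order from Actc1 down to Myh7 overlapped in their ranges over the libraries. In TAC SFA replicate 1, Acta1 at 14025 per kb was above Myh6 at 13239 per kb. Myh7b, at 8.224 to 40.53 per kb, lay below the lowest Myh7 library at 74.01 per kb, and Tnni1, at 1.129 to 5.407 per kb, lay below the lowest Myh7b library. This order depends on using the length of 1 transcript for each gene.

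After TAC, transcripts of Myh7 and Acta1 rose, and those of their adult counterparts Myh6 and Actc1 did not pass the test. Averaged over both diets, Myh7 was 12-fold and Acta1 7.27-fold higher in TAC than in sham ventricles. These were the only 2 of the 10 members called in this comparison, both higher, where 1.38% of all tested genes were called higher and 2.11% in either direction. The other 8 members had log2 fold changes between -0.51 and 0.16, and the lowest adjusted p among them was 0.198. The median of all 10 members was 0.02 on the log2 scale, beside 0.01 over all tested genes.

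**Figure D1:**
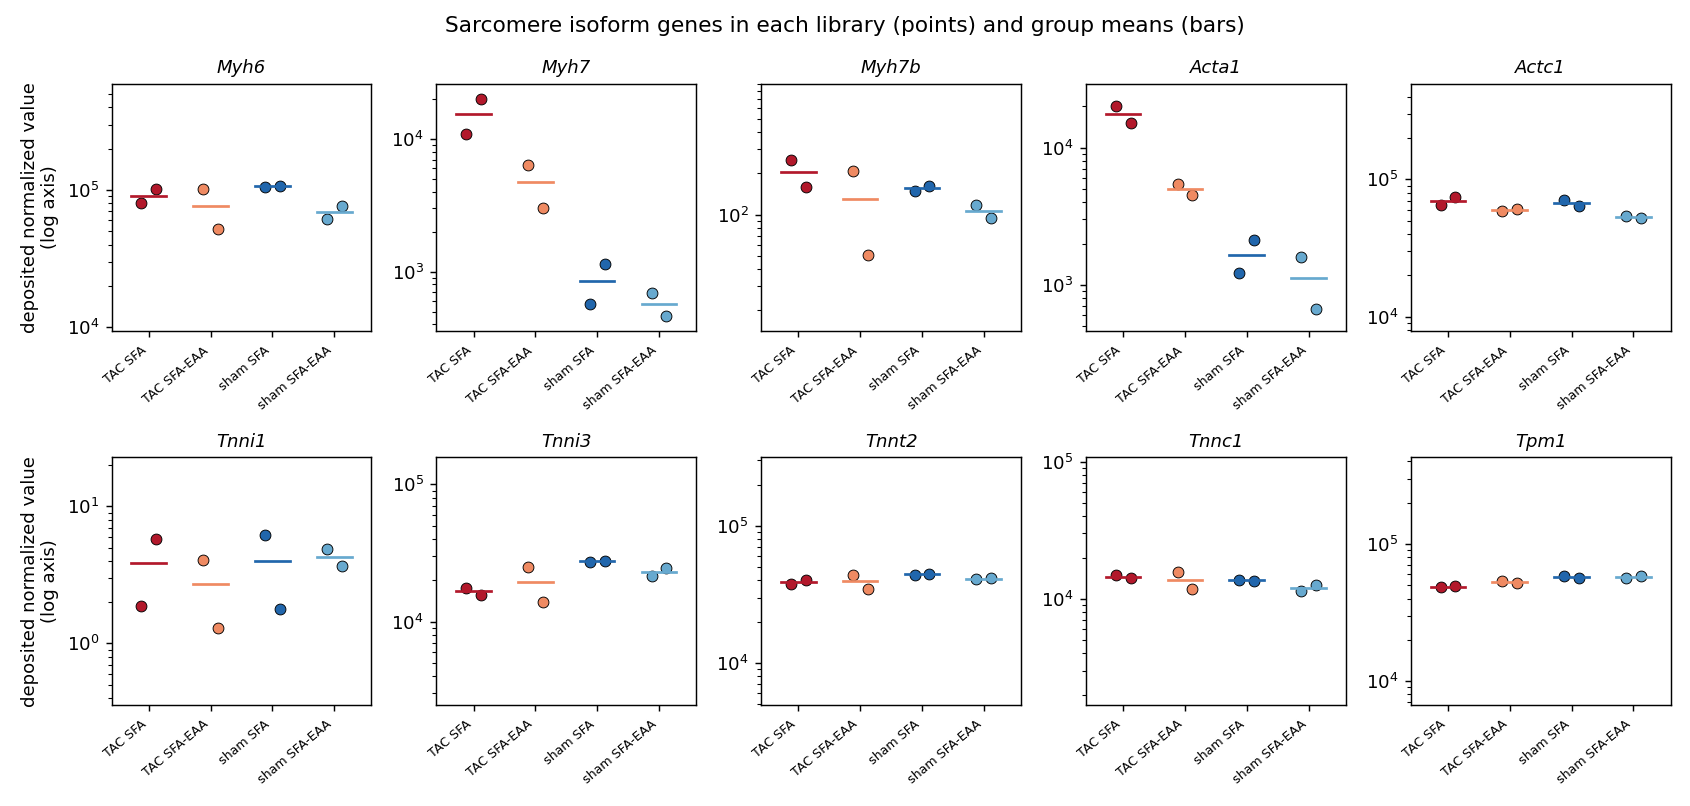
Deposited normalized value (log axis) of each of the 10 genes in each library (points), with the group mean as a bar, for TAC SFA, TAC SFA-EAA, sham SFA and sham SFA-EAA. Every TAC library lies above every sham library for Myh7 and Acta1, and below every sham library for Tpm1, whose averaged log2 fold change was 0.1 under quantile normalization.

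Myh7 (ENSMUSG00000053093, beta myosin heavy chain) lies on chromosome 14 from 54970688 to 54994634 on the minus strand of GRCm38. It was listed at 10894 and 20121 in TAC SFA and at 6403 and 3016 in TAC SFA-EAA ventricles, against 569.5 and 1143 in sham SFA and 686.5 and 461.1 in sham SFA-EAA ventricles. All 4 TAC libraries were thus above all 4 sham libraries, and the lowest TAC library was one of the SFA-EAA diet. Over both diets the mean was 10108 ± 7414 after TAC and 715.1 ± 300 after sham surgery (SD, n = 4 each). The averaged log2 fold change was 3.58 (SE 0.31, limma adjusted p = 0.00166). Under SFA alone it was 4.2 (SE 0.44, limma adjusted p = 0.00438), an 18.3-fold difference. Under SFA-EAA alone it was 2.96 (SE 0.44), 7.8-fold, and did not pass (limma adjusted p = 0.12). After the GC correction the SFA-EAA value was 2.88 and passed (limma adjusted p = 0.00541), in a fit that called 0.207% of all tested genes.

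Myh6 (ENSMUSG00000040752, alpha myosin heavy chain) is the neighbour of Myh7 on the same strand, from 54941981 to 54966927, and 3760 bases lie between them. It was listed at 80930 and 101342 in TAC SFA and at 102083 and 51541 in TAC SFA-EAA ventricles, against 105843 and 107780 in sham SFA and 61544 and 75821 in sham SFA-EAA ventricles. The TAC and sham values overlapped over both diets, with means of 83974 ± 23740 after TAC and 87747 ± 22786 after sham surgery (SD, n = 4 each). The averaged log2 fold change was -0.08 (SE 0.23, limma adjusted p = 0.923). It was 0.02 under quantile normalization, so no direction can be given.

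The principal transcripts of Myh6 and Myh7 have 6113 and 6230 bases, and 22.64% and 22.21% of their 50-base stretches occur in the other gene as well. How the authors counted reads that fit both genes is not given in the sources used here. Part of the signal at either gene could belong to the other. The antisense RNA Mhrt overlaps Myh7 on the opposite strand, and use of strand in counting is not stated either. Mhrt was listed at 183.4, 117.5, 148.7 and 109.7 in the TAC libraries, against 174.8, 160.5, 120.9 and 132.8 in the sham libraries (averaged log2 fold change -0.09, limma adjusted p = 0.859). Its values overlapped between TAC and sham, while those of Myh7 did not.

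Myh7b (ENSMUSG00000074652, chromosome 2, 155611212 to 155634307, plus strand) encodes a further slow-type myosin heavy chain of low abundance. It was listed at 249.8 and 158.2 in TAC SFA and 207.9 and 50.68 in TAC SFA-EAA, against 149.4 and 162.3 in sham SFA and 116.4 and 94.12 in sham SFA-EAA ventricles. The groups overlapped, and the 2 TAC SFA-EAA libraries were the farthest apart of any group. The averaged log2 fold change was 0.16 (SE 0.37, limma adjusted p = 0.89), and it was -0.34 without TAC SFA-EAA replicate 1.

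Acta1 (ENSMUSG00000031972, skeletal alpha-actin) lies on chromosome 8 from 123891769 to 123894751 on the minus strand. It was listed at 20280 and 15142 in TAC SFA and at 5475 and 4484 in TAC SFA-EAA ventricles, against 1220 and 2106 in sham SFA and 1585 and 661.2 in sham SFA-EAA ventricles. Again all TAC libraries were above all sham libraries, and both TAC SFA libraries were above both TAC SFA-EAA libraries. The mean was 11345 ± 7655 after TAC and 1393 ± 609 after sham surgery (SD, n = 4 each). The averaged log2 fold change was 2.86 (SE 0.27, limma adjusted p = 0.00257). Under SFA it was 3.45 (SE 0.38, limma adjusted p = 0.00556), and under SFA-EAA it was 2.27 (SE 0.38, limma adjusted p = 0.175). After the GC correction the SFA-EAA value was 2.17 and passed (limma adjusted p = 0.0405).

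Actc1 (ENSMUSG00000068614, cardiac alpha-actin, chromosome 2, 114047282 to 114053548, minus strand) was listed at 64745 and 74295 in TAC SFA and 58470 and 61088 in TAC SFA-EAA, against 70701 and 64104 in sham SFA and 53833 and 52398 in sham SFA-EAA ventricles. TAC and sham overlapped, and the averaged log2 fold change was 0.11 (SE 0.13, limma adjusted p = 0.774). Of the 50-base stretches of the Acta1 transcript, 2.22% occur in another annotated gene, a predicted model, and those of Actc1 occur in none.

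Under SFA the 2 called members were Myh7 and Acta1, both higher, where 0.834% of all tested genes were called higher and 1.25% in either direction. Both had groups of 2 libraries that did not overlap, as did 24.3% of tested genes in the same direction. Acta1 was not called when any of the 4 SFA libraries was left out, and Myh7 was not called without TAC SFA replicate 2, sham SFA replicate 1 or sham SFA replicate 2. The log2 fold changes then ranged from 3.69 to 4.7 for Myh7 and from 3.06 to 3.84 for Acta1 over all single omissions. Averaged over both diets, Myh7 and Acta1 were called whichever library was left out. Under SFA-EAA 0 members passed, where 0.0122% of tested genes were called, and both Myh7 and Acta1 were under an unadjusted p of 0.05, as were 1408 of all tested genes.

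**Figure D2:**
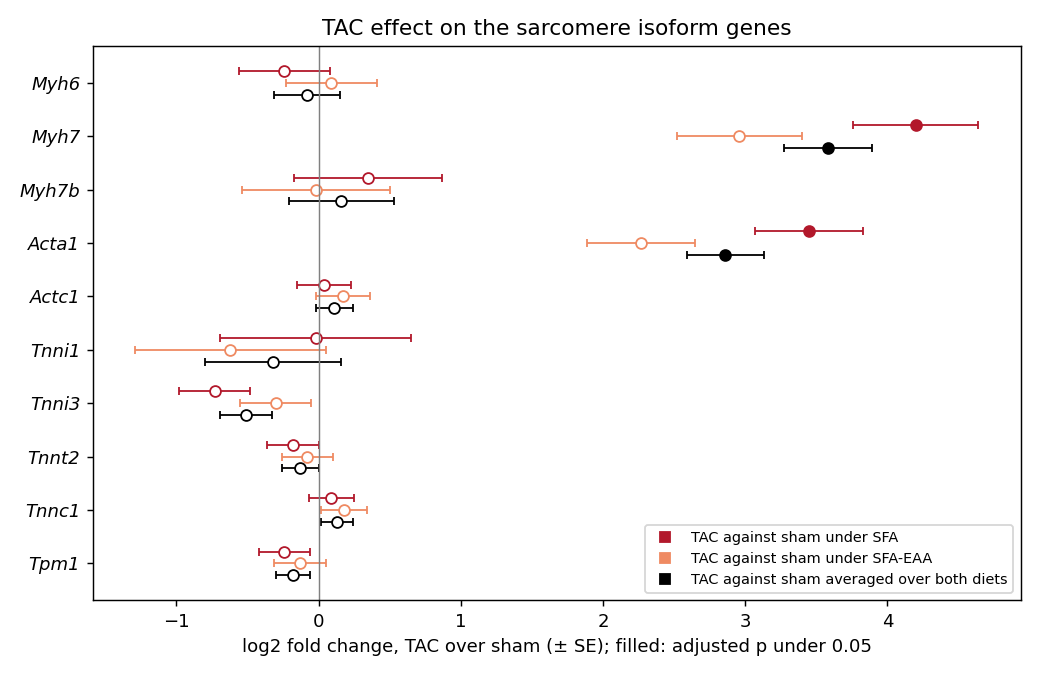
Log2 fold change, TAC over sham, with its standard error (limma, 2 libraries per group), for each gene under SFA, under SFA-EAA and averaged over both diets. Filled points passed the threshold, which Myh7 and Acta1 did under SFA (4.2 and 3.45) and averaged over both diets (3.58 and 2.86).

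Transcripts for the regulatory proteins of the thin filament did not change past the threshold in the reported fit. Tnni3 (ENSMUSG00000035458, cardiac troponin I, the inhibitory subunit, chromosome 7, 4518305 to 4524229, minus strand) was listed at 17532 and 15668 in TAC SFA and 25085 and 13903 in TAC SFA-EAA, against 26997 and 27819 in sham SFA and 21448 and 24640 in sham SFA-EAA ventricles. Both TAC SFA libraries were below all sham libraries, while TAC SFA-EAA replicate 1 was within the sham range. The log2 fold change was -0.73 under SFA (SE 0.25, limma adjusted p = 0.235), -0.3 under SFA-EAA (limma adjusted p = 0.818) and -0.51 averaged (SE 0.18, limma adjusted p = 0.198). After the GC correction it was -0.75 under SFA (limma adjusted p = 0.0126) and -0.56 averaged (limma adjusted p = 0.00826), both past the threshold. After that correction 5.02% of all tested genes were called under SFA and 6.19% in the averaged comparison. Tnni3 also passed averaged under quantile normalization (-0.6, limma adjusted p = 0.0246), in a fit that called 291 of 16432 tested genes. Under SFA it passed with libraries weighted by their scatter (-0.73, limma adjusted p = 0.0471), where 728 were called. Of the planned settings other than single omissions, 3 of 11 passed it averaged and 3 of 12 under SFA. Over single omissions the averaged value ranged from -0.73 to -0.3. Tnni3 overlaps Dnaaf3, a gene of dynein arm assembly, on the same strand. Dnaaf3 was listed at 10.07 to 26.59 in TAC and 23.17 to 43.2 in sham libraries, at most a small part of the Tnni3 values.

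Tnni1 (ENSMUSG00000026418, slow skeletal troponin I, chromosome 1, 135779434 to 135810989, plus strand) was barely present. It was listed at 1.869 and 5.785 in TAC SFA and 4.084 and 1.298 in TAC SFA-EAA, against 6.218 and 1.774 in sham SFA and 4.888 and 3.661 in sham SFA-EAA ventricles. The groups overlapped fully, and values of this size rest on few reads. The averaged log2 fold change was -0.32 (SE 0.48, limma adjusted p = 0.821), and a change was not detectable at this depth.

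Tnnt2 (ENSMUSG00000026414, cardiac troponin T, which ties the complex to tropomyosin) was listed at 34663 to 43869 in TAC and 41033 to 44828 in sham libraries. Tnnc1 (ENSMUSG00000091898, the calcium-binding troponin C) was listed at 11756 to 15746 in TAC and 11488 to 13752 in sham libraries. Both overlapped, with averaged log2 fold changes of -0.13 (SE 0.13, limma adjusted p = 0.705) for Tnnt2 and 0.13 (SE 0.11, limma adjusted p = 0.644) for Tnnc1. Tnnc1 serves the heart before and after birth and slow skeletal muscle as well. Splice forms of Tnnt2 and Tpm1 that differ between fetal and adult hearts were not resolved, since values are per gene.

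Tpm1 (ENSMUSG00000032366, alpha-tropomyosin, chromosome 9, 67022590 to 67049406, minus strand) was listed at 48696 and 49096 in TAC SFA and 53803 and 51849 in TAC SFA-EAA, against 58785 and 56882 in sham SFA and 56672 and 58584 in sham SFA-EAA ventricles. All 4 TAC libraries were below all 4 sham libraries, as for 2.75% of tested genes, while for Myh7 and Acta1 the separation upwards was shared by 3.73% of tested genes. The means were 50861 ± 2411 after TAC and 57731 ± 1108 after sham surgery (SD, n = 4 each). The averaged log2 fold change of -0.18 (SE 0.12) did not pass (limma adjusted p = 0.548), and it was 0.1 under quantile normalization.

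The isoform pairs were also compared as ratios within each library, a measure on which the scaling of the library has no bearing. A trend with GC content does not cancel where the genes of a pair differ in it. GC content was 57.0% for Acta1 and 52.3% for Actc1, 48.7% for Tnni1 and 55.8% for Tnni3, and 56.2% for Myh7 and 56.4% for Myh6. The ratios below are not corrected for it. Each gene was first divided by the length of its principal transcript. Myh7 made up 14.0% ± 3.28 of Myh7 plus Myh6 in TAC SFA ventricles and 5.61% ± 0.26 in TAC SFA-EAA, against 0.778% ± 0.357 in sham SFA and 0.838% ± 0.346 in sham SFA-EAA ventricles (SD, n = 2 each). In single libraries the share was 11.7% and 16.3% in TAC SFA ventricles and 5.8% and 5.43% in TAC SFA-EAA, against 0.525% and 1.03% in sham SFA and 1.08% and 0.593% in sham SFA-EAA. Myh6 therefore remained the main myosin heavy chain transcript in all 8 libraries. With the deposited gene lengths, an alternative chosen after seeing the data, the mean Myh7 shares were 10.9% in TAC SFA ventricles and 4.29% in TAC SFA-EAA, against 0.587% in sham SFA and 0.633% in sham SFA-EAA.

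Acta1 made up 20.7% ± 4.95 of Acta1 plus Actc1 in TAC SFA ventricles and 7.83% ± 1.24 in TAC SFA-EAA, against 2.48% ± 1.07 in sham SFA and 2.09% ± 1.16 in sham SFA-EAA ventricles (SD, n = 2 each). In single libraries it was 24.2% and 17.2% in TAC SFA ventricles and 8.71% and 6.96% in TAC SFA-EAA, against 1.73% and 3.24% in sham SFA and 2.91% and 1.27% in sham SFA-EAA. For actin as for myosin, both TAC SFA libraries had the highest shares and both TAC SFA-EAA libraries the next. Tnni1 made up between 0.00741% and 0.0293% of Tnni1 plus Tnni3 in TAC libraries and between 0.00506% and 0.0183% in sham libraries, which overlap.

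The Myh7/Myh6 ratio was 12.6-fold and the Acta1/Actc1 ratio 6.76-fold higher in TAC than in sham ventricles (log2 differences 3.66 and 2.76). The Tnni1/Tnni3 ratio differed by 0.07 on the log2 scale. The exact two-sided permutation test of 4 against 4 libraries gave p = 0.0286 for the myosin ratio and the same for the actin ratio, which is the smallest p that 70 splits allow, and p = 0.829 for the troponin I ratio. Adjusted over the 6 ratio tests, the values were 0.0857, 0.0857 and 0.914. No ratio can have the smallest p for both TAC and diet, so no outcome of these 6 tests could pass the threshold after adjustment. That none passed was therefore fixed by the number of libraries and tests, and nothing is concluded from it. Higher ratios in TAC were seen in 4 of 4 libraries for myosin and for actin.

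**Figure D3:**
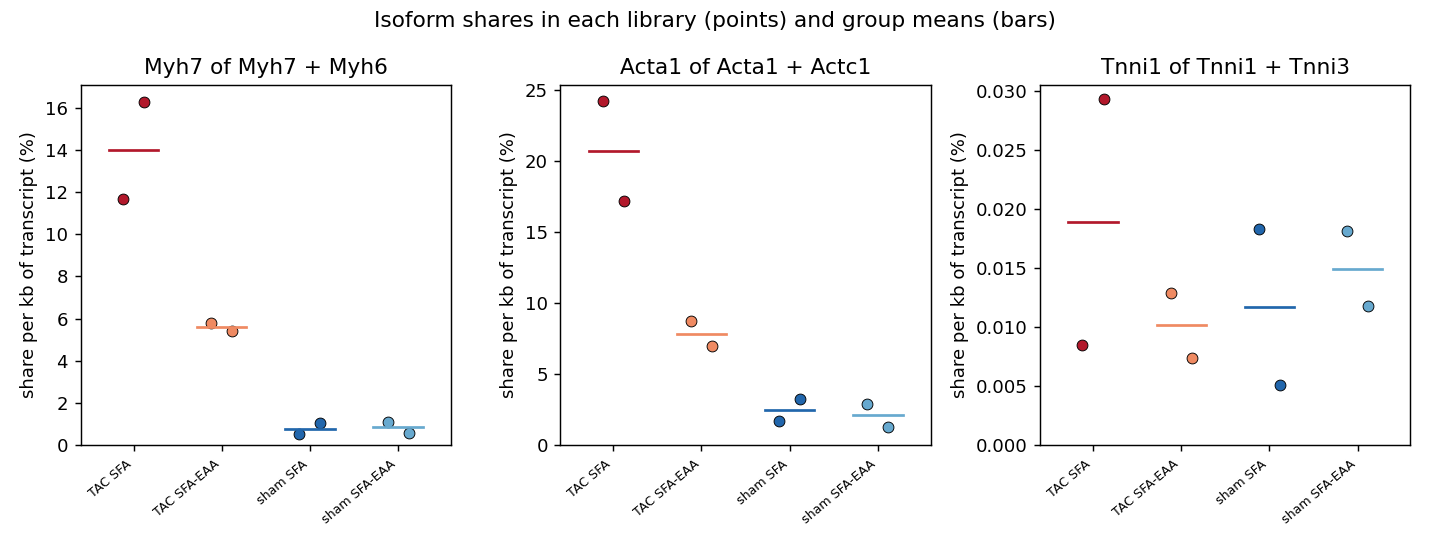
Share of the fetal isoform in each pair (%, per kb of principal transcript) in each library (points), with the group mean as a bar. For Myh7 and for Acta1 all 4 TAC libraries lie above the sham libraries and TAC SFA above TAC SFA-EAA, while the Tnni1 share stays at or under 0.0293% and overlaps.

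The question of the diet is whether amino acid enrichment altered the response to overload. After TAC, Myh7 had 6403 and 3016 under SFA-EAA and 10894 and 20121 under SFA, so the diet groups did not overlap. The log2 fold change was -1.75 (SE 0.44) and did not pass (limma adjusted p = 0.146). Acta1 had 5475 and 4484 under SFA-EAA and 20280 and 15142 under SFA, a log2 fold change of -1.82 (SE 0.38) that did not pass either (limma adjusted p = 0.118). Such a separation downwards between 2 libraries and 2 was seen in 21.1% of tested genes. By limma, 0 of the 10 members were called, where 0.0487% of tested genes were called, and 2 members, Myh7 and Acta1, had an unadjusted p under 0.05, as had 2476 of all tested genes. Over single omissions the Myh7 difference ranged from -2.29, without TAC SFA-EAA replicate 1, to -1.21. Leaving out that library keeps only replicate 2 in its group, whose deviations fell with GC content (Spearman rho -0.73). In both TAC SFA libraries they rose (rho 0.34 and 0.46), so diet and this trend then cannot be told apart after TAC. With all 8 libraries, the values after the GC correction were -1.43 for Myh7 (limma adjusted p = 0.052) and -1.45 for Acta1 (limma adjusted p = 0.0692).

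In sham ventricles Myh7 was 686.5 and 461.1 under SFA-EAA, against 569.5 and 1143 under SFA, and Acta1 was 1585 and 661.2 under SFA-EAA, against 1220 and 2106 under SFA. The diets overlapped for both genes, with log2 fold changes of -0.52 (limma adjusted p = 0.601) for Myh7 and -0.65 (limma adjusted p = 0.447) for Acta1. By limma, 0 of the 10 members were called and 0 had an unadjusted p under 0.05, where 0% of tested genes were called and 2437 had such a p. After the GC correction the diet differences in sham were -0.14 for Myh7 (limma adjusted p = 0.919) and -0.21 for Acta1 (limma adjusted p = 0.881). Actc1 was lower in all 4 SFA-EAA libraries than in all 4 SFA libraries, as were 4.92% of tested genes, with an averaged log2 fold change of -0.28 (SE 0.13, limma adjusted p = 0.251) and of -0.14 after the GC correction.

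Averaged over both operations, the SFA-EAA diet gave log2 fold changes of -1.14 (SE 0.31, limma adjusted p = 0.0869) for Myh7 and -1.23 (SE 0.27, limma adjusted p = 0.061) for Acta1. No member was called by limma, where 1.21% of tested genes were, and 2 members were under an unadjusted p of 0.05, as were 3808 of all tested genes. After the GC correction the values were smaller, -0.79 for Myh7 (limma adjusted p = 0.101) and -0.83 for Acta1 (limma adjusted p = 0.115). Without TAC SFA-EAA replicate 1, which leaves 1 library in that group, the uncorrected values were -1.41 for Myh7 and -1.31 for Acta1. The omitted library was the only SFA-EAA library whose deviations rose with GC content (Spearman rho 0.43), as those of all SFA libraries did. Without it the diet and this trend coincide and cannot be told apart. The Myh7/Myh6 and Acta1/Actc1 ratios were 0.636-fold and 0.515-fold those under SFA, over 4 libraries of each diet (exact two-sided permutation p = 0.629 and 0.457, adjusted over 6 tests 0.914 each). These are log2 differences of -0.65 for myosin and -0.96 for actin, and single libraries moved both. Over single omissions the myosin value ranged from -1.56 without sham SFA replicate 1 to 0.18 without TAC SFA replicate 2, and the actin value from -1.68 without sham SFA replicate 1 to -0.29 without TAC SFA replicate 1. Within the TAC groups these ratios were 0.371-fold and 0.328-fold, and 2 libraries against 2 cannot give an exact p below 0.333.

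The difference between the TAC effects under the 2 diets was tested as an interaction. It was -1.23 on the log2 scale for Myh7 (SE 0.62, limma adjusted p = 0.88) and -1.18 for Acta1 (SE 0.54, limma adjusted p = 0.878), so a smaller rise under SFA-EAA was not shown. By limma, 0 of the 10 members were called and 0 had an unadjusted p under 0.05, where 0% of tested genes were called and 902 had such a p. With the spread in these libraries an effect of this size could not be told from none.

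Calls among other sarcomere genes in the averaged TAC comparison are to be read against 2.11% of all tested genes, and 6.19% after the GC correction. Of 16 other thick filament genes, 11 were tested and 1 was called, with a median log2 fold change of -0.04 for the list. It was Myl1, an essential light chain of fast skeletal and fetal muscle, listed at 179.7 to 321.4 in TAC and 101.2 to 191.1 in sham libraries (1.85-fold, limma adjusted p = 0.0499), and it did not pass in 7 of 8 single omissions nor under 6 of the other planned settings, a pseudocount of 0.25 among them. With the GC correction 3 of the 11 were called higher, Myl1 with Mybpc3 and Mybpc2, the cardiac and fast skeletal myosin binding proteins C (log2 fold change 0.32 and 0.89, limma adjusted p = 0.0428 and 0.0302). Myl2 and Myl3, the ventricular light chains, were not called. The embryonic and fast skeletal heavy chains Myh3, Myh1, Myh2 and Myh4 were listed at 0 in all 8 libraries. Among 18 other thin filament genes, 17 were tested and 1 was called, with a median of 0.01. This was Neb, the giant thin filament protein nebulin, at 40.96 to 43.14 in TAC and 15.73 to 19.82 in sham libraries (2.2-fold, limma adjusted p = 0.021). Neb did not pass with no filter on low values (limma adjusted p = 0.0549), nor in 6 of 8 single omissions. Of the 17, the GC-corrected fit called 2 higher, Neb and the actin filament regulator Lmod2 (0.41, limma adjusted p = 0.00922), and 1 lower, the fast skeletal troponin I gene Tnni2 (-1.46, limma adjusted p = 0.0373).

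Among 16 genes of titin, the M-line and the Z-disc, 15 were tested and 2 were called higher, with a median of 0.29. They were Ankrd1, a stretch-responsive partner of titin, at 14950 to 33082 in TAC and 3568 to 6540 in sham libraries (4.04-fold, limma adjusted p = 0.00257), and Synpo2l, an actin-binding Z-disc protein, at 1242 to 3434 in TAC and 569.4 to 875.1 in sham libraries (2.72-fold, limma adjusted p = 0.00152). Both were called in every single omission, and Ankrd1 was not called with no filter on low values (limma adjusted p = 0.0557). The GC-corrected fit called 6 of the 15 higher, these 2 with Myom1, Csrp3, Myoz2 and Myot, proteins of the M-line and Z-disc (log2 fold change 0.42, 0.37, 0.32 and 0.73, limma adjusted p between 0.00805 and 0.0388). Of 10 genes for folding and turnover of sarcomere proteins, 1 was called, Hspb7, a small heat shock protein of heart muscle (1.57-fold, limma adjusted p = 0.0357), with a median of 0.13. Hspb7 did not pass with no filter on low values (limma adjusted p = 0.103), nor in 6 of 8 single omissions. Of the 10, 2 were called higher after the GC correction, Hspb7 and the chaperone gene Hsp90aa1 (0.46, limma adjusted p = 0.00316).

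Among 25 known regulators of sarcomere genes, all tested, 1 was called in the averaged comparison, with a median of 0.05. It was Dio2, the deiodinase that makes active thyroid hormone, at 73.02 and 102 in TAC SFA and 21.69 and 36.58 in TAC SFA-EAA, against 10.37 and 9.156 in sham SFA and 14.25 and 6.189 in sham SFA-EAA ventricles. Every TAC library was above every sham library (4.76-fold, limma adjusted p = 0.00895), and Dio2 did not pass with no filter (limma adjusted p = 0.0685), nor in 4 of 8 single omissions. Under SFA, Dio2 was higher (log2 fold change 3.02, limma adjusted p = 0.0157) and Rxrg, a retinoid X receptor that partners thyroid hormone receptors, was lower (-0.87, limma adjusted p = 0.0356). The Rxrg call was lost with no filter (limma adjusted p = 0.0831), with only the 4 libraries compared (0.133) and in 6 of 8 single omissions, and averaged over both diets Rxrg did not pass (-0.46, limma adjusted p = 0.0745). Tead1, a factor that binds M-CAT, was at 981 to 1277 in TAC and 845.6 to 944.1 in sham libraries, which did not overlap, and it did not pass in the averaged comparison (0.36, limma adjusted p = 0.0741). Tead1 passed after the GC correction (0.36, limma adjusted p = 0.00806), as did Rxrg (-0.5, limma adjusted p = 0.00424), and 3 of the 25 regulators were called, Dio2 and Tead1 higher and Rxrg lower. The thyroid hormone receptors Thra and Thrb, named here for their role and after their values were seen, were called in neither fit. The 3 stress partners Nppa, Nppb and Ankrd1 were all called higher in the averaged comparison. Nppa and Nppb, the natriuretic peptides, were 6.86-fold and 3.68-fold higher (limma adjusted p = 0.000655 and 0.00056).

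Markers of other cells moved with part of these results. Of 11 skeletal muscle markers 6 were detected, with summed levels of 7.218 to 12.25 in TAC and 11.84 to 17.54 in sham libraries, and Myh1, Myh2, Myh4, Myod1 and Pax7 were at 0. Acta1 reached 20280 in TAC SFA replicate 1, where these 5 markers were at 0, as in every library. In that library the listed markers Mylpf and Tnni2 were at 4.777 and 1.896, and Myl1, named above, was at 320.6. Skeletal muscle as a source of Acta1 was not tested. Of 8 ventricular markers all were detected, at 163000 to 201155 in TAC and 171177 to 188317 in sham libraries, which fits the labelled tissue. Of 7 atrial markers 6 were detected, at 3448 to 21603 in TAC and 1165 to 2869 in sham libraries, and Bmp10 was at 0. Nppa, also a stress gene of the ventricle, made up most of that sum in every library but sham SFA replicate 1. There Nppa was 1300 of a sum of 2869, with Myl4 at 631.3 and Myl7 at 621.3. In TAC SFA replicate 1, with Myl7 at 11.84, Myh7 was 10894, and in TAC SFA replicate 2, with Myl7 at 321.9, Myh7 was 20121. In sham SFA replicate 1, with Myl7 at 621.3, Myh7 was 569.5. A part of atrial tissue in the Myh7 values was not tested.

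Without TAC SFA replicate 2 and sham SFA replicate 1, the libraries of highest Myl7, the averaged log2 fold change was 3.11 for Myh7 and 2.77 for Acta1, and neither passed (limma adjusted p = 0.429 each), with 0 calls over all tested genes and 1397 at an unadjusted p under 0.05. The called genes of the lists then had adjusted p of 0.37 (Nppa), 0.494 (Neb), 0.489 (Dio2) and 0.538 (Hspb7), and 0.429 for each of Myl1, Ankrd1, Synpo2l, Nppb, Postn and Col3a1. The lone SFA library left in each arm is then assumed to vary like the other groups. Of 7 fibroblast markers, Postn (5.84-fold, limma adjusted p = 0.0055) and Col3a1 (2.35-fold, limma adjusted p = 0.00636) were called higher in TAC, though not in 2 and 4 of 8 single omissions, and the list summed to 4594 to 12471 in TAC and 4092 to 5018 in sham libraries. In the GC-corrected fit 4 of the 7 were called, Col1a1 (1.08, limma adjusted p = 0.00251) and Lum (0.61, limma adjusted p = 0.0402) as well, with 3 of 5 macrophage markers (Adgre1, Csf1r and C1qa) and 1 of 6 smooth muscle markers (Des), all higher in TAC. The 5 macrophage markers summed to 557.3 to 813.8 in TAC and 343.6 to 631 in sham libraries, the 6 smooth muscle markers to 7903 to 17978 and 7971 to 10649, and the 6 endothelial markers to 3057 to 3522 and 2874 to 3821. Their part in the Myh7 and Acta1 results was not tested, and in whole tissue, fewer cells of a type and less RNA per cell cannot be told apart.

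Genes whose pattern over the 8 libraries was most like that of Myh7 or Acta1 were found by Pearson's r of log2(value + 1) among 9938 genes with a mean of at least 20. Myh7 and Acta1 themselves had r = 0.968, a description that rests on the same libraries and on the split between TAC and sham. The 5 nearest to Myh7 were Nrap (r = 0.987), Ankrd1 (0.982), Tnfrsf12a (0.979), Klhl34 (0.976) and Synpo2l (0.974). The 5 nearest to Acta1 were Ankrd1 (0.98), Tnfrsf12a (0.977), Synpo2l (0.975), Svep1 (0.967) and Ifitm3 (0.962). Nrap, an actin-binding protein of myofibril assembly, was at 4039 to 6830 in TAC and 2628 to 3409 in sham libraries. Tnfrsf12a, the receptor for the cytokine TWEAK, was at 469 to 815.9 in TAC and 161.2 to 241 in sham libraries. Ankrd1, Tnfrsf12a and Synpo2l were on both lists. All of the genes named were higher in every TAC library than in every sham library, as were 3.73% of tested genes. Since the genes were chosen by likeness to Myh7 or Acta1, their separation and the shared entries are no independent result.

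**Figure D4:**
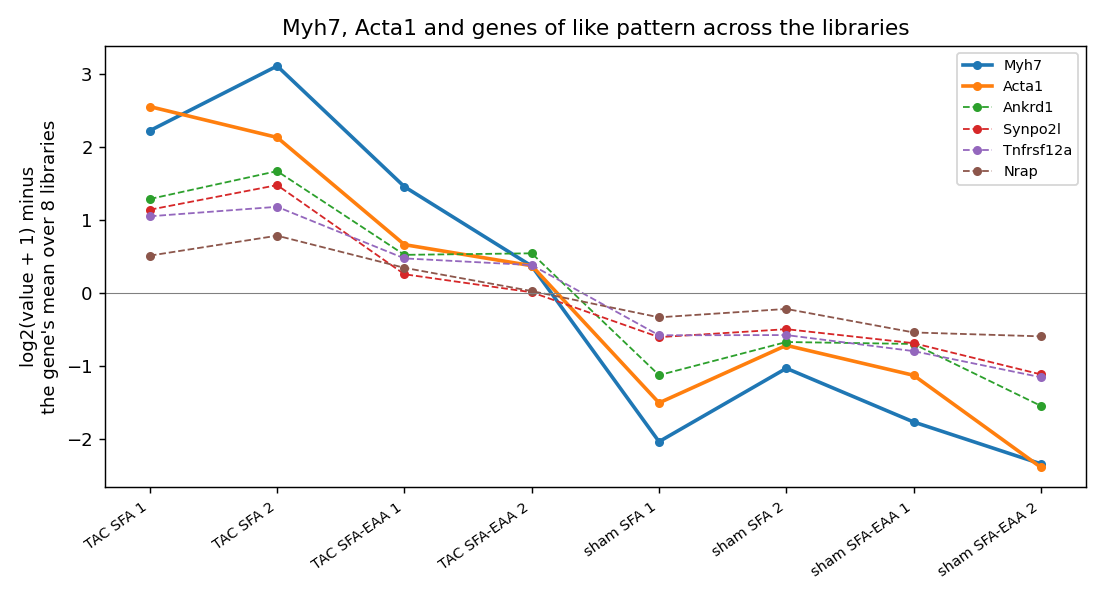
Log2(value + 1) of Myh7, Acta1, Ankrd1, Synpo2l, Tnfrsf12a and Nrap in each library, minus the gene's mean over the 8 libraries. Lines only join the points of a gene. All 6 genes are above their mean in the 4 TAC libraries and below it in the 4 sham libraries, and TAC SFA is above TAC SFA-EAA.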

How the data were processed

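RNA from the left ventricle was sequenced with a stranded polyA kit, per the labels' protocols. Reads were aligned with STAR 2.5 to GRCm38 and normalized with edgeR, as the submitters' processing notes record. Which counter, annotation release, strand setting and filters were used is not given in the sources used here. The deposited table holds a normalized signal per gene and library, made by the authors and not in whole reads. Among values under 6, 31.5% to 89.2% of a library lay within 0.05 of a whole multiple of its best step, so no count test was run. Gene lengths are in the same table, and no column was left unused.

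Limma 3.58.1 in R 4.3.3 (limma-trend) was fitted to log2(value + 1) for 16432 genes, with 1 mean for each of 4 groups, all 8 libraries and 7 comparisons. Log2 fold changes are on that scale, which understates the change of low genes. Ratios were tested by exact permutation over libraries. GC correction subtracted a loess curve (span 0.3) fitted to 10221 genes with a mean of at least 20. The limma fit was run on simulated data with independent normal noise, for the TAC against sham comparisons only. The ratio tests, the GC correction and the diet and interaction comparisons were not tested in this way. Other settings are given in the closing section. Figures were made with Python 3.11.15 and matplotlib 3.10.9.

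Members and lists were chosen with earlier results of these data known. Named are all members, up to 6 called genes and the 3 highest of each list, the 5 genes nearest to Myh7 and to Acta1, and markers at or near 0. Genes that overlap a member, genes called only after GC correction, Tead1, Thra and Thrb are named outside this rule. Replicate numbers were checked for pairing through the difference of replicate 1 and replicate 2 within each group. Between groups, these differences had correlations of -0.1 to 0.01 over the tested genes, so the numbers were not used as pairs.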

Additional observations from a re-analysis of the deposited data

How the results depend on the processing

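The Myh7 and Acta1 rises after TAC kept their direction in every setting tried (averaged log2 fold change 3.11 to 3.6 and 2.77 to 2.89 over the planned settings other than single omissions, and 3.31 to 3.85 and 2.55 to 3.18 over single omissions), and calls depended on the setting. In TAC against sham under SFA, 2 members were called in the reported fit, 1 with no filter on low values, 0 with only the 4 libraries compared, 0 without both libraries of highest Myl7, and 0 to 3 when each library was left out. Averaged over both diets, 2 were called, 0 with no filter (adjusted p = 0.0525 for Myh7 and 0.0631 for Acta1), 0 without both libraries of highest Myl7, and 2 to 3 over single omissions. Under SFA-EAA, 0 were called, 2 with the GC correction, 1 with the replicate block plus GC correction, and 0 over single omissions. For the diet averaged over both operations, 0 were called, 1 (Acta1) with values of at least 5 in at least 4 libraries, 1 (Acta1) when scaled without mitochondrial genes, and 0 to 4 over single omissions. For the diet in TAC, 0 to 2 were called over single omissions. For the diet in sham and the interaction it was 0 in every setting tried.

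Directions that reversed were of values that did not pass in the reported fit. Under quantile normalization Myh6 was 0.02, Tnnt2 0.09 and Tpm1 0.1 averaged over both diets, and the Tnni1/Tnni3 ratio was 0.1 for the diet. Without both libraries of highest Myl7 that ratio was -0.14 for TAC and 0.87 for the diet. Over single omissions the ranges that crossed 0 were -0.41 to 0.58 for Myh6, -1.03 to 0.98 for Myh7b and -0.73 to 0.13 for Tnni3 under SFA-EAA. Averaged, they were -0.32 to 0.17 for Myh6, -0.34 to 0.67 for Myh7b and -0.66 to 0.03 for Tnni1. For Tnni3 under the diet in TAC the range was -0.25 to 0.6. The Myh7/Myh6 ratio for the diet ranged from -1.56 to 0.18, the Acta1/Actc1 ratio from -1.68 to -0.29, and the Tnni1/Tnni3 ratio from -0.35 to 0.31 for TAC and from -0.47 to 0.38 for the diet. The causes were not tested.

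Scalings moved the median of all genes by at most 0.07 on the log2 scale. The replicate block left 2 members called under SFA and 2 averaged, with 96 and 147 genes called over the whole table, against 205 and 347 without it. Of the named list genes, the block ended the averaged calls of Neb (adjusted p = 0.0511), Myl1 (0.0722) and Hspb7 (0.0713), the Rxrg call under SFA (0.073) and the Nppb call under SFA-EAA (0.119). The labels do not say that replicate numbers pair the samples. With 2 libraries per group, and values of a few reads for Tnni1, small changes were not detectable.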
